A study of Mus musculus with 4 samples.

Results

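RNA sequencing values were examined for 10 secreted metabolic factors, Metrnl, Metrn, Angptl2, Angptl4, Gdf15, Fgf21, Nucb2, Ptgds, Rbp4 and Cfd, among 27357 genes measured in Leydig cells of the mouse testis. The genes were taken by name, as adipokine-like and metabolic factors that could carry a signal from testis to fat, after the 4 libraries were joined on gene ID and given symbols. Leydig cells are the interstitial cells that make androgen. The cells came from male mice that began a high-fat diet when 8 weeks old and ate it for 12 weeks. The mice were wild type (WT, 2 libraries) or carried a knockout of C2orf74 (KO, 2 libraries), and both genotypes had the diet. The labels give neither the strain nor the cells in which the gene was removed, and do not state that each library is a different animal. The p-values therefore reflect how far these particular libraries spread, and that spread may be technical.

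Fat and other tissues release proteins that adjust feeding, lipid supply and the thermogenic state of adipocytes. Meteorin-like (Metrnl) is a muscle and fat hormone that promotes browning of white fat in mice. Angptl4 and the related Angptl2 are angiopoietin-like proteins, of which Angptl4 inhibits lipoprotein lipase and so holds back fat uptake from blood, while Angptl2 is linked to inflammation of fat. Gdf15 and Fgf21 are stress-induced hormones that lower food intake and alter fuel use. Nucb2 is the precursor of the appetite-suppressing peptide nesfatin. Ptgds makes prostaglandin D and carries lipophilic ligands, Rbp4 carries retinol in blood, and Cfd (adipsin) is the adipocyte protease of the alternative complement pathway.

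Values are RPKM, the reads of a gene scaled by its exon length and by library size. From the size of 1 read in each library, depth in WT came to 13847807 and 15817093 reads. The KO libraries were deeper on average, at 15694389 and 19764004 reads. C2orf74 itself, 1700093K21Rik in the mouse, was listed at 0 in WT replicate 1 and both KO libraries and stood at 0.126 RPKM, 4 reads, in WT replicate 2, so it could not check the labels at this depth. Of 8 Leydig cell markers all 8 reached 1 RPKM in at least 1 library. Their summed level was 1602 and 1414 RPKM in WT and 1688 and 1778 in KO, and Hsd3b6, Hsd3b1 and Cyp11a1 make up most of it. Cyp17a1 was low, at 0.900 and 1.90 RPKM in WT and 2.12 and 1.47 in KO. Of these markers 5 had a higher mean in KO and 3 a lower one, Star, Cyp11a1 and Insl3. Of 5 adipocyte markers in the files 0 reached 1 RPKM. These adipocyte markers were Adipoq, Lep, Plin1, Retn and Adrb3, and their summed level lay between 0.580 and 0.800 RPKM. Epididymal epithelium markers also stayed low, with 0 of 5 at 1 RPKM in any library.

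The sequences before the transcription start are shown for the pair of factors with the smallest p-values (Metrnl and Gdf15) and for Fgf21, a stress hormone like Gdf15 that was near 0. Each run comes from the 250 bases before the RefSeq start in GRCm38.p6, read 5′ to 3′ on the strand of the gene. For Metrnl the last 16 bases, which lie in an exon of another transcript, are left out, and 234 are shown. The Metrnl window lies inside the GENCODE gene, which starts at 121701544. It therefore precedes the RefSeq start and not the GENCODE start. For Gdf15 the entry whose start coincides with the GENCODE start is given. Capitals mark matches to the searched motifs described after the sequences.
Metrnl, chr11:121702177-121702410, plus strand: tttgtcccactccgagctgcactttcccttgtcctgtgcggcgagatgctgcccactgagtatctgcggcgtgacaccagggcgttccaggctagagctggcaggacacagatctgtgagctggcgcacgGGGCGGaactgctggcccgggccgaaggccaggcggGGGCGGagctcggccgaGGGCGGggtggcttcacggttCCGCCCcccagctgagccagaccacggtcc
Gdf15, chr8:70632457-70632706, minus strand: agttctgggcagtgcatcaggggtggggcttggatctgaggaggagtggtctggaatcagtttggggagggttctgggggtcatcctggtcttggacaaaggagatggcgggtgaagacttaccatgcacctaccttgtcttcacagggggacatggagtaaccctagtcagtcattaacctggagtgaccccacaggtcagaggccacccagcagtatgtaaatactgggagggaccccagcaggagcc
Fgf21, chr7:45615491-45615740, minus strand: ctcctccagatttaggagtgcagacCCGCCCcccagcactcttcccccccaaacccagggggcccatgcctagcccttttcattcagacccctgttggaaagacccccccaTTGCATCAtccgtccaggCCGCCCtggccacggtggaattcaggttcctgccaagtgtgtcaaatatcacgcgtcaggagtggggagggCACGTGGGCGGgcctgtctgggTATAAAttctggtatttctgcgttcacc

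The motifs were searched on both strands. They were the AP-1 site TGANTCA, the cyclic AMP element TGACGTCA, the C/EBP-ATF composite site TGATGNAA, the E-box CACGTG, the GC box GGGCGG, the SF-1 half-site AAGGTCA, the TATA box TATAAA and the antioxidant response element TGACNNNGC. The Metrnl window held 4 GC boxes, at -120, -84, -67 and -46 from the RefSeq start, and no other searched motif. GC boxes, in any number, were present in 32.7% of all 32851 windows. The full Metrnl window was 68.4% GC, against a median of 52.4% over all windows. The Gdf15 window shown held no match, and the second Gdf15 entry held an E-box at -83. The Ptgds window, not printed because an annotated exon covers its last 93 bases, held an AP-1 site at -35, inside that exon. This motif was present in 6.75% of windows. The Fgf21 window held a C/EBP-ATF site at -139 (3.45% of windows), an E-box at -50 (6.02%) that overlaps a GC box at -45, GC boxes at -225 and -121, and a TATA box at -28 (12.4%). Windows were found for 9 of the 10 factors, and Angptl4 had no entry. A match describes these letters and not a bound site.

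The 10 factors ranged from one of the most abundant transcripts to values near 0. Of the 10, 6 reached 1 RPKM in at least 2 libraries, the level required for testing, and all 6 did so in each of the 4 libraries. Ptgds (ENSMUSG00000015090, chromosome 2, 25466709 to 25470046, minus strand, GRCm38) ranked 12 from the top among the 27357 genes. Its level was 1718 and 2069 RPKM in WT and 2005 and 1480 RPKM in KO. The mean of Angptl4 (ENSMUSG00000002289, chromosome 17, 33773750 to 33781830) was 134 RPKM and that of Nucb2 (ENSMUSG00000030659, chromosome 7, 116504369 to 116540584) was 104 RPKM, and the ranges of this pair over the 4 libraries overlapped. Metrnl (ENSMUSG00000039208, chromosome 11, 121701544 to 121716306) followed with a mean of 11.2 RPKM, Gdf15 (ENSMUSG00000038508, chromosome 8, 70629393 to 70632456) with 4.56 RPKM and Angptl2 (ENSMUSG00000004105, chromosome 2, 33216069 to 33247717) with 1.54 RPKM. Apart from Angptl4 and Nucb2, neighbours in this order did not overlap in their library ranges down to Angptl2. The plot of levels by library shows the 6 tested factors above the filter and the other 4 below it.

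**Figure D1:**
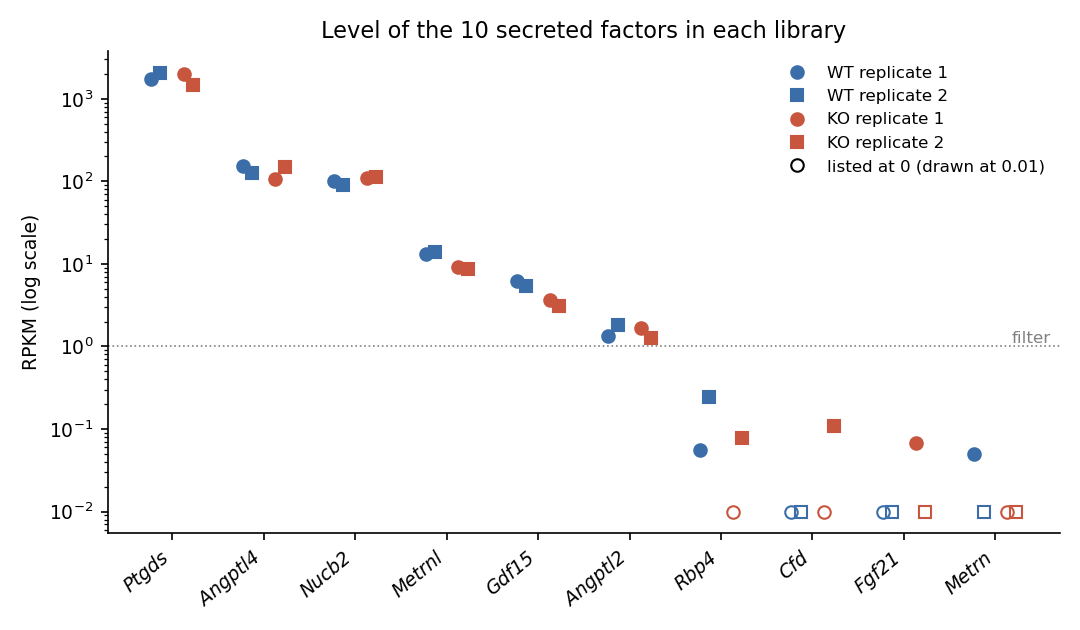
Level of each factor in RPKM (log axis) in each library, with WT in blue, KO in red, circles for replicate 1 and squares for replicate 2; open symbols at the base are values listed at 0, and the dotted line is the filter of 1 RPKM. Ptgds lies between 1480 and 2069 RPKM, while Rbp4, Cfd, Fgf21 and Metrn stay below 0.25 RPKM in all 4 libraries.

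Metrnl was lower in both KO libraries than in both WT libraries, but its difference did not pass the test over all genes. Its level was 13.2 and 13.9 RPKM in WT (290 and 349 reads) and 9.12 and 8.61 RPKM in KO (227 and 270 reads). The groups did not overlap, and the 95% Poisson intervals for counting error, 11.7 to 14.8 and 12.5 to 15.5 RPKM in WT against 7.97 to 10.4 and 7.62 to 9.70 RPKM in KO, did not overlap either. The means were 13.6 ± 0.501 and 8.87 ± 0.358 RPKM (SD, n = 2 libraries each), a ratio of WT to KO of 1.53. The log2 change in RPKM + 1 was -0.56 ± 0.082 (SE, 95% interval -0.77 to -0.35), with a limma unadjusted p of 0.000933 and an adjusted p of 0.154. Metrnl ranked 75 by p among 12391 tested genes.

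Gdf15 was also lower in both KO libraries and did not pass the test over all genes. The WT libraries stood at 6.12 and 5.43 RPKM (157 and 159 reads) and the KO libraries at 3.65 and 3.06 RPKM (106 and 112 reads), again with no overlap between groups. The mean RPKM was 5.77 ± 0.491 for WT against 3.35 ± 0.415 for KO (SD, n = 2 libraries each), a ratio of WT to KO of 1.72. The log2 change was -0.64 ± 0.12 (SE, 95% interval -0.93 to -0.35), with a limma unadjusted p of 0.00247 and an adjusted p of 0.195. In a fit without KO replicate 1 the limma adjusted p was 0.0408 for Metrnl and 0.0478 for Gdf15. When that fit kept the genes that passed the filter over all 4 libraries, the limma adjusted p-values were 0.0646 and 0.0740.

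Among the 6 tested factors 0 passed an FDR of 0.05 in limma, against 0% of all 12391 genes. Voom on recovered reads could take 5 of them, without Angptl4, whose values did not come out as whole reads. Of those 5 factors 0 passed, against 0% of 10856 genes. By unadjusted p under 0.05, 2 factors were lower, Metrnl and Gdf15, and 0 higher, where 11.7% of all genes passed (7.42% lower and 4.33% higher). Those were 919 lower and 536 higher genes, and under quantile normalization 749 lower and 662 higher. Voom gave 1301 genes at that unadjusted p. The groups did not overlap for 3 of the 6 factors, lower for 2 and higher for 1, against 44.7% of all genes (25.0% lower and 19.7% higher). With so few factors these shares are a description.

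**Figure D2:**
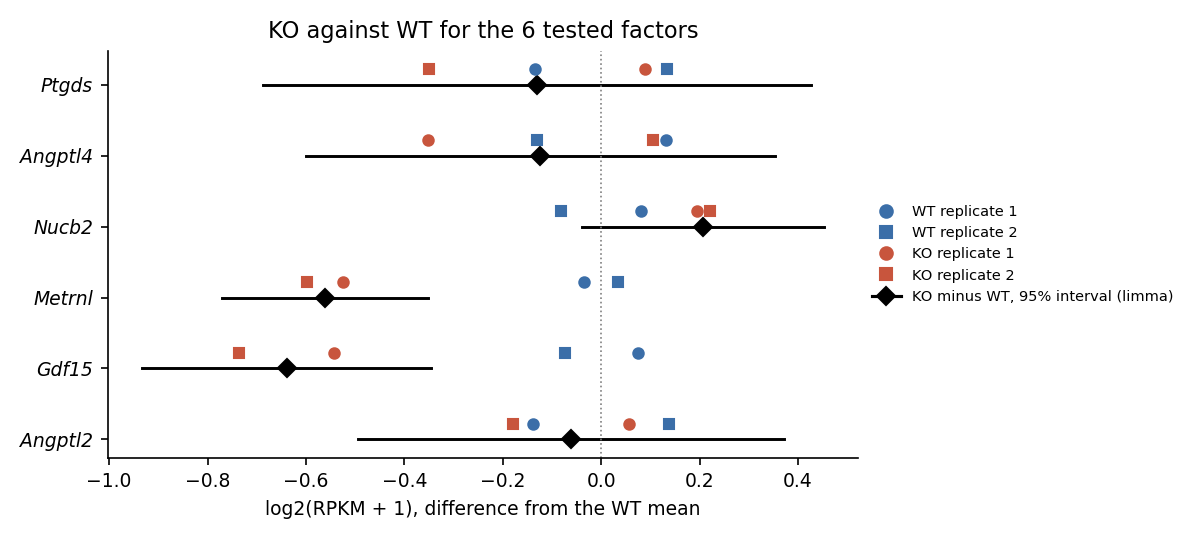
Difference from the WT mean on the log2(RPKM + 1) scale for the 6 tested factors; blue and red points are the WT and KO libraries (circles replicate 1, squares replicate 2), and black diamonds with bars are the limma change of KO against WT with its 95% interval. The intervals of Metrnl (-0.77 to -0.35) and Gdf15 (-0.93 to -0.35) lie below 0 before adjustment for the number of genes, and the other 4 include 0.

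Nucb2 had higher values in both KO libraries. It stood at 101.6 and 90.7 RPKM in WT and at 110.0 and 112.0 RPKM in KO, so the groups did not overlap. The log2 change was 0.21 ± 0.096 (SE, 95% interval -0.039 to 0.45), with a limma adjusted p of 0.486. Without WT replicate 2 it was 0.13. Its paralog Nucb1, a calcium-binding Golgi protein, had 65.8 and 68.9 RPKM in WT and 70.8 and 65.7 in KO, with overlapping groups.

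For Ptgds, Angptl4 and Angptl2 the replicates of each genotype spread over the values of the other. Ptgds was highest in WT replicate 2 and lowest in KO replicate 2, and its log2 change was -0.13 ± 0.22 (SE, 95% interval -0.69 to 0.43, limma adjusted p = 0.850). Angptl4 stood at 151.5 and 126.1 RPKM in WT and at 108.0 and 148.9 RPKM in KO, a log2 change of -0.12 ± 0.19 (SE, 95% interval -0.60 to 0.35, limma adjusted p = 0.831). Angptl2 stood at 1.34 and 1.84 RPKM in WT and at 1.68 and 1.28 RPKM in KO, a log2 change of -0.061 ± 0.17 (SE, 95% interval -0.49 to 0.37, limma adjusted p = 0.915). These intervals leave room for differences in either direction. Leaving out a single library turned the sign of all 3, with log2 changes of -0.35 to 0.088 for Ptgds, -0.35 to 0.11 for Angptl4 and -0.20 to 0.077 for Angptl2. Angptl2 overlaps Ralgps1 on the other strand, and whether counting used strand is not stated, so its reads cannot be told apart from that gene's.

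**Figure D3:**
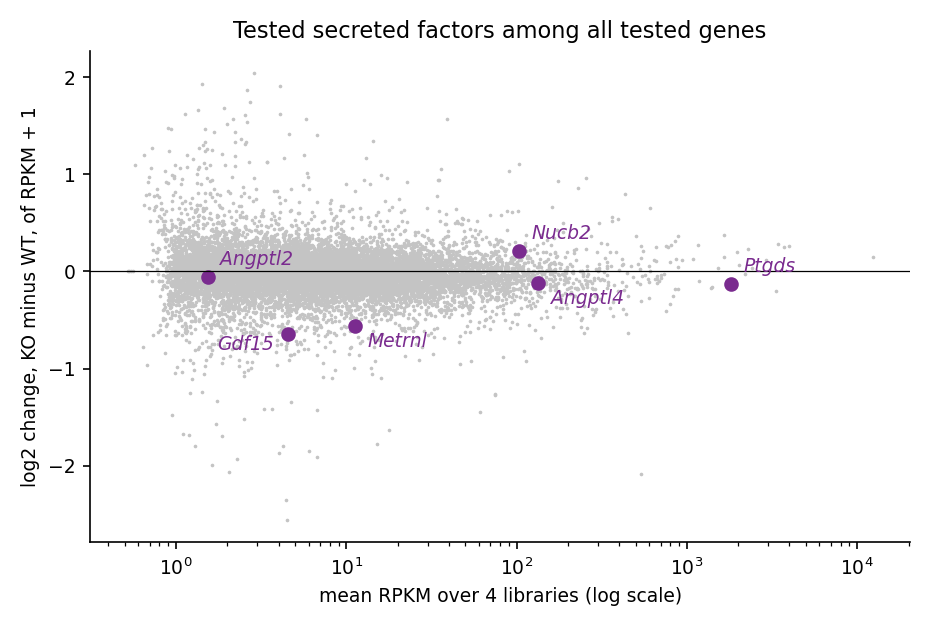
Mean level over the 4 libraries in RPKM (log axis) against the log2 change of KO against WT in RPKM + 1 for the 12391 tested genes (grey), with the 6 tested factors in purple. Metrnl (-0.56) and Gdf15 (-0.64) lie farthest from 0 among the 6, and Nucb2 (0.21), Angptl4 (-0.12), Ptgds (-0.13) and Angptl2 (-0.061) lie closer to it.

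The other 4 factors were near 0 in both genotypes. Metrn, the neurotrophic paralog of Metrnl, had 0.0504 RPKM in WT replicate 1 and was listed at 0 in the other 3 libraries. It overlaps AC134908.4 and Gm26694, and its value did not come out as whole reads. Fgf21 had 0.0670 RPKM, a single read, in KO replicate 1 and was listed at 0 elsewhere, where 3 reads would give 0.160 to 0.228 RPKM. Cfd had 0.110 RPKM, 2 reads, in KO replicate 2 and was listed at 0 in the other 3. Rbp4 had 0.0557 and 0.244 RPKM in WT and 0 and 0.0780 in KO. No fold change is given for these 4 genes, since differences of this size were not detectable at this depth. These limits cover counting error alone. Relatives of the factors differed in level. Metrnl exceeded 8 RPKM in every library where Metrn stayed at or below 0.0504. Of 7 angiopoietin-like genes in the files, 3 passed the filter, Angptl4 at a mean of 134 RPKM, Angptl1 at 1.61 and Angptl2 at 1.54. The other prostaglandin D synthase, Hpgds, had a mean of 2.81 RPKM against 1818 for Ptgds.

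Several markers of other testis cells had lower means in KO, as Metrnl and Gdf15 did. No marker list was tested. Over the 12391 tested genes 6662 had lower and 5729 higher values in KO. The 7 endothelial markers were all lower on average in KO, and their summed level was 20.4 and 22.7 RPKM in WT and 13.6 and 10.4 in KO. All 6 myoid and smooth muscle markers were lower too, with sums of 219 and 250 RPKM in WT and 188 and 173 in KO. Of these lists, the endothelial genes Kdr, Tek and Egfl7 and the muscle genes Tagln and Cnn1 stayed under 1 RPKM in all libraries. Of 8 fibroblast markers 6 were lower, with sums of 284 and 318 RPKM in WT and 286 and 228 in KO. The fibroblast sum in KO replicate 1 thus lay between the WT libraries. Pdgfra (50.1 and 52.6 RPKM in WT, 74.6 and 60.6 in KO) and Dcn had higher means in KO. Of 7 macrophage markers 6 were lower on average. Macrophage sums were 1163 and 886 RPKM in WT and 604 and 958 in KO, so the sum in KO replicate 2 lay between the WT libraries. Lyz2 makes up most of that sum. In KO replicate 2, Cd68 (97.5 RPKM against 132.7 and 105.4 in WT) and Csf1r (21.2 against 28.5 and 21.8) were below both WT libraries. Lyz2, Adgre1, Cx3cr1, Mrc1 and Cd163 lay between the WT libraries there. Adgre1 had 15.5 RPKM against 15.9 and 13.1 in WT, and Mrc1 had 7.08 against 9.08 and 5.97. Metrnl and Gdf15 were lowest in KO replicate 2, as were the endothelial, myoid and fibroblast sums. Without KO replicate 1 the log2 change was -0.60 for Metrnl and -0.74 for Gdf15. Whether endothelial, myoid, fibroblast or macrophage genes have a part in these differences was not tested. In bulk RNA, fewer cells of a type and less RNA per cell cannot be told apart. Sertoli cell markers summed to 6.40 and 5.81 RPKM in WT and 5.93 and 3.82 in KO, and germ cell markers to 2.24 and 1.18 in WT and 3.48 and 3.27 in KO.

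**Figure D4:**
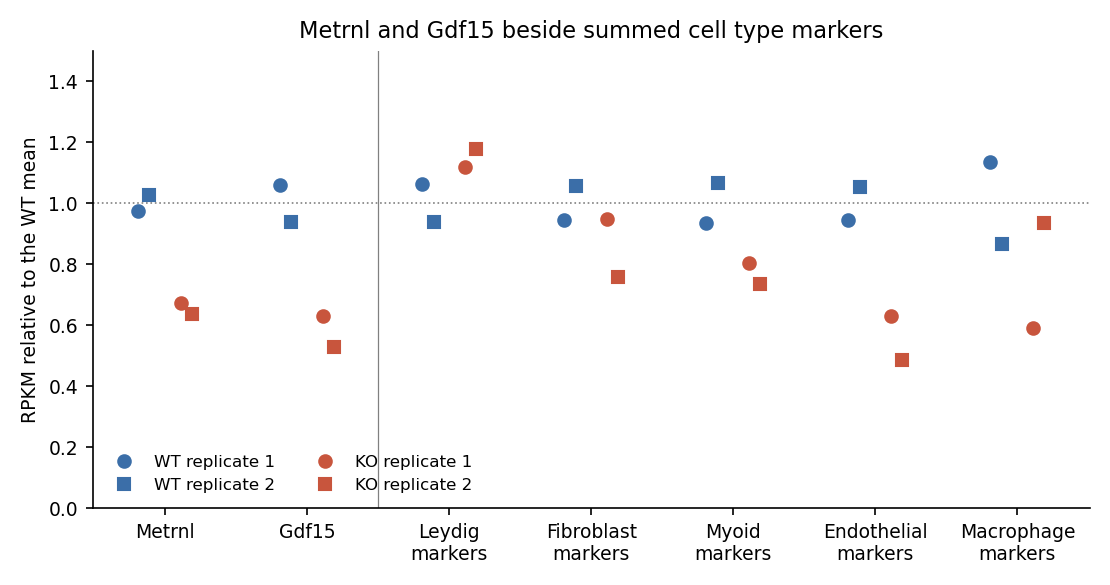
Metrnl, Gdf15 and the summed levels of 5 marker lists in each library, as a ratio to the WT mean in RPKM (blue WT, red KO; circles replicate 1, squares replicate 2). Metrnl at 0.673 and 0.635 and Gdf15 at 0.632 and 0.530 lie below WT in both KO libraries, as do endothelial and myoid sums, and macrophage sums are 0.590 in KO replicate 1 and 0.935 in KO replicate 2.

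Receptors and processing partners were taken from lists, with the 3 genes of highest level named from each. None of the 95 tested genes on these lists, including regulators and other secreted factors, passed an FDR of 0.05 in limma. Judged by unadjusted p under 0.05, 6 of them were higher and 16 lower, beside 4.33% of all genes higher and 7.42% lower, and under quantile normalization 7 and 14. The median log2 change was -0.13, with 31 higher and 64 lower values, beside a median of -0.016 over all genes, of which 5729 had higher and 6662 lower values. The lists were chosen with earlier results of these data known. These counts, and those of each list below, therefore describe the listed genes and are not a test of them. Kit, a receptor tyrosine kinase reported to bind meteorin-like, had 16.1 and 16.6 RPKM in WT and 20.3 and 24.8 in KO, with no overlap (log2 change 0.44 ± 0.11 SE, limma adjusted p = 0.304). Without KO replicate 1 its limma adjusted p was 0.0397, and 0.0635 when that fit kept the filter over all 4 libraries. The values of Metrnl and of this receptor lay on opposite sides of WT.

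Among 10 tested partners of the angiopoietin-like proteins, log2 changes ran from -0.35 to 0.38. Of these, 1 was lower at an unadjusted limma p under 0.05, beside 7.42% of all genes. The integrin chain Itgb1 had 260.5 and 238.8 RPKM in WT and 227.3 and 229.4 in KO. Lipg, the endothelial lipase that angiopoietin-like proteins inhibit, had 131.9 and 110.8 RPKM in WT and 177.8 and 139.0 in KO. Both KO libraries were above both WT libraries, with a log2 change of 0.38 ± 0.16 (SE, limma adjusted p = 0.448). It was 0.20 without KO replicate 1 and 0.25 without WT replicate 2. The heparan sulfate proteoglycan Sdc4 had 147.8 and 138.7 RPKM in WT and 92.7 and 135.3 in KO. The groups did not overlap. Its log2 change was -0.35 ± 0.19 with a limma adjusted p of 0.538. The value rests on KO replicate 1: it was -0.081 without that library. Without KO replicate 2 it was -0.62, with a limma adjusted p of 0.0493, or 0.0854 when the filter over all 4 libraries was kept. Lipoprotein lipase, Lpl, which was chosen for its role as the enzyme that Angptl4 inhibits and not for its level, had 17.2 and 13.2 RPKM in WT and 13.0 and 14.5 in KO.

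The partners of Gdf15 and Fgf21 had small differences. Of the 6 tested, 0 passed an unadjusted limma p under 0.05, against 11.7% of all genes. Mmp14, a membrane protease that cleaves the Gdf15 receptor, had 27.0 and 25.9 RPKM in WT and 24.7 and 20.5 in KO, without overlap. The proprotein convertase Furin had 17.9 and 19.2 RPKM in WT and 20.3 and 15.8 in KO, and Pcsk5, of the same family, had 11.3 and 12.4 and then 11.3 and 12.9. Of the fibroblast growth factor receptors, Fgfr4 had 11.6 and 13.9 RPKM in WT and 17.9 and 10.8 in KO, and Fgfr2 had 4.73 and 4.57 and then 6.84 and 4.55. Fgfr1, the main receptor for Fgf21 in fat, had 11.3 and 12.8 RPKM in WT and 10.9 and 10.2 in KO, without overlap. Klb, the co-receptor that Fgf21 requires and which was chosen for that role, was listed at 0 in 3 libraries and stood at 0.0445 RPKM in KO replicate 2.

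Around Ptgds, 6 prostaglandin D2 genes were tested, with a median log2 change of -0.15. By unadjusted limma p under 0.05, 1 was lower, beside 7.42% of all genes. Hpgd, which degrades prostaglandins, had 103.9 and 91.4 RPKM in WT and 104.3 and 97.2 in KO. Akr1b3, an aldo-keto reductase, had 26.6 and 25.1 RPKM and then 29.5 and 25.9. The phospholipase Pla2g4a, which frees arachidonic acid, had 15.5 and 14.3 RPKM in WT and 11.2 and 16.4 in KO. The groups overlapped for all 3. On the retinol carrier list, the pattern receptor Tlr4 had 3.89 and 2.94 RPKM in WT and 2.83 and 3.29 in KO, and Ttr, the plasma partner of Rbp4, stayed at or below 0.296 RPKM.

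Of 8 tested genes of the alternative complement pathway, on which Cfd acts, 7 had lower and 1 higher values in KO. Their median log2 change was -0.20, and 1 was lower at an unadjusted p under 0.05. Over all genes 6662 had lower and 5729 higher values, and 7.42% were lower at that p. The central component C3 had 163.9 and 212.1 RPKM in WT and 136.7 and 192.0 in KO. Its receptor C3ar1 had 19.8 and 15.6 RPKM and then 12.2 and 18.9, and the related receptor C5ar1 had 18.5 and 14.2 and then 8.48 and 15.4. The groups overlapped for each of these 3. The receptors C3ar1 and C5ar1 were lowest in KO replicate 1, the library with the lowest macrophage sum. Whether macrophage content has a part in these values was not tested.

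**Figure D5:**
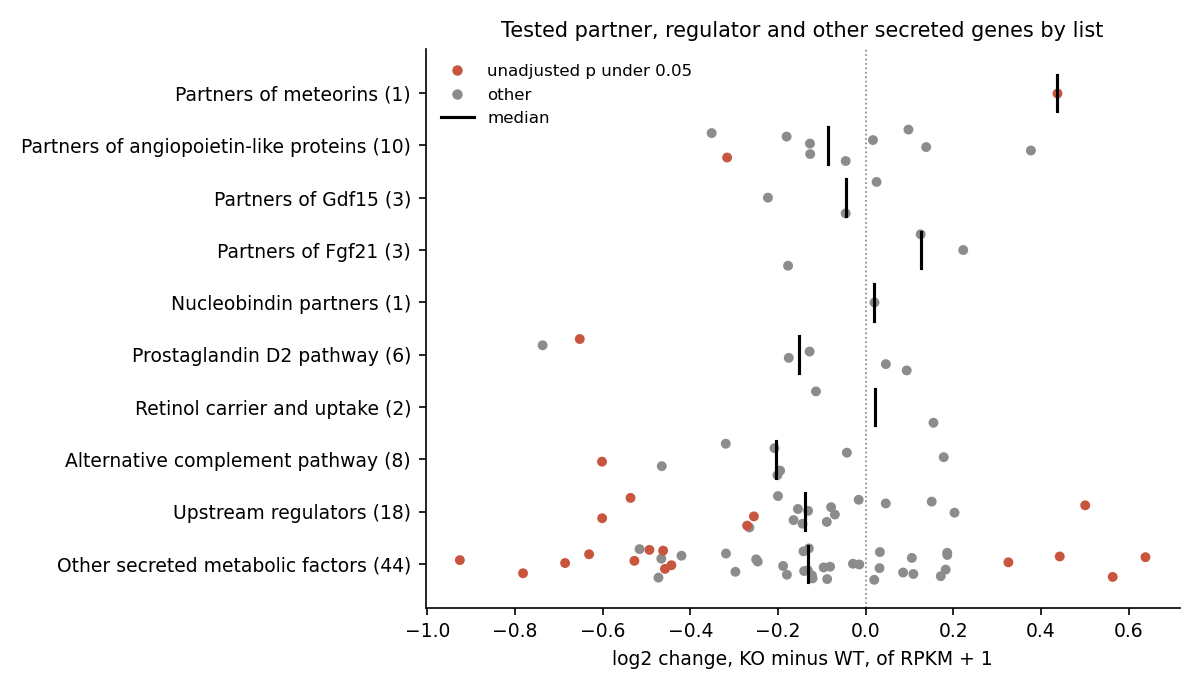
Log2 change of KO against WT in RPKM + 1 for the tested genes of each list (number in brackets); red points have an unadjusted limma p under 0.05, grey points do not, and black bars are medians. The medians run from -0.20 for the complement list to 0.44 for the list that holds Kit alone, and 0 genes passed an FDR of 0.05.

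Of 18 tested regulators, 14 had lower and 4 higher values in KO. Their median log2 change was -0.14, and 4 were lower and 1 higher by unadjusted p under 0.05. Over all genes 7.42% were lower and 4.33% higher by that p, and 6662 had lower and 5729 higher values. Atf4, the stress-response factor that drives Fgf21 and Gdf15 in other settings, had 134.3 and 134.0 RPKM in WT and 118.3 and 104.2 in KO. Its groups did not overlap (log2 change -0.27 ± 0.10 SE, limma adjusted p = 0.411). Without KO replicate 2 the change was -0.18. Atf5, a related factor, had 34.8 and 36.6 RPKM in WT and 32.0 and 32.4 in KO. Nfe2l2, the antioxidant regulator, had 83.3 and 75.0 RPKM and then 72.4 and 71.7. For both genes the groups did not overlap, and the limma adjusted p-values were 0.534 and 0.632. Of 44 other secreted metabolic factors tested, 30 had lower and 14 higher values, with a median log2 change of -0.13, and 9 were lower and 4 higher at an unadjusted p under 0.05, again beside 7.42% and 4.33% of all genes. The matrix protein Sparc had 1576 and 1412 RPKM in WT and 1623 and 1434 in KO. The lipocalin Lcn2 had 931.7 and 857.2 RPKM in WT and 783.9 and 720.2 in KO, without overlap (log2 change -0.25 ± 0.13 SE, limma adjusted p = 0.531). The lipid carrier Apoe had 635.3 and 753.6 RPKM and then 743.3 and 544.2. Adipoq and Lep, the defining hormones of fat, were at or below 0.0916 RPKM.

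The genes nearest to Metrnl in their pattern over the 4 libraries were taken by Euclidean distance between centred log2(RPKM + 1) values, among 7372 other genes with a mean of at least 5 RPKM. These were Tagln2, an actin-associated protein (distance 0.0733), Abhd17c, a depalmitoylase (0.0852), and the predicted gene Gm41192 (0.0885). Tagln2 had 77.5 and 75.8 RPKM in WT and 52.7 and 50.7 in KO. Abhd17c had 26.4 and 27.7 RPKM in WT and 19.3 and 18.8 in KO, and Gm41192 had 7.26 and 7.25 and then 4.50 and 4.61. Their limma adjusted p-values were 0.154, 0.174 and 0.154. These genes were picked for their likeness to Metrnl over the same 4 libraries, so their p-values are not a separate test of genotype. Among the factors Gdf15 was nearest to Metrnl at 0.193, with 123 of the 12391 tested genes nearer, counted with Metrnl itself.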

How the data were processed

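RNA was extracted with Trizol and sequenced from 4 libraries of isolated Leydig cells, 2 WT and 2 KO, per the labels' protocols. The submitters' processing notes name the genome build mm9; no source used here gives the aligner, counter or annotation. The values deposited by the authors carry no unit and were taken as RPKM, since multiplied by exonic length in GENCODE M21 (GRCm38) between 90.4% and 90.7% of the values above 0 are whole reads within 0.01. Positions are GENCODE's on GRCm38. Of 27357 IDs 51 had no symbol.

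A level of 1 RPKM in at least 2 libraries was required, leaving 12391 genes. These were compared on log2(RPKM + 1), a scale on which low genes' changes come out too small, with limma 3.58.1 in R 4.3.3 (genotype alone, trend, 2-sided, Benjamini-Hochberg FDR of 0.05). It had 2 residual degrees of freedom and 3.08 prior ones. On simulated data the check was that set changes, all larger than those of Metrnl and Gdf15, were recovered in mean size. Power for smaller changes was not examined. Tables and figures used Python 3.11.15, pandas 2.3.3, SciPy 1.17.1 and Matplotlib 3.10.9. The factors and gene lists were chosen with earlier results of these data known. From each list the 3 genes of highest mean level were named, with the 3 genes nearest to Metrnl, except 1 listed gene that is not reported here; Lpl and Klb were added for their roles and Hpgds and Angptl1 as relatives after their values were seen. Poisson intervals, and floors set at 3 reads, cover only counting error. Promoter sequences are RefSeq's. Alternatives were a pseudocount of 0.1, a 5 RPKM filter, no filter, quantile normalization, trimmed-mean rescaling, no trend, each library left out, a replicate block from the title suffix and voom on recovered reads.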

Additional observations from a re-analysis of the deposited data

How the results depend on the processing

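Metrnl kept a lower value in KO under all 16 alternatives (log2 change -0.62 to -0.52, limma adjusted p 0.0408 to 0.776), and Gdf15 did too (-0.79 to -0.54, 0.0478 to 0.849). Both passed an FDR of 0.05 in 1 of them, without KO replicate 1. Counts over all genes stayed at 0 except where a KO library was left out and the spread came from the WT pair. In such a fit the lone KO library is assumed to vary like WT. With the filter applied to the remaining 3 libraries, 12105 genes were tested without KO replicate 1 and 12089 without KO replicate 2. At most 6 of the 10 factors and 95 of the listed genes were tested in any fit. With each library left out, and the filter applied to the remaining 3, all genes ranged from 0 to 111 higher and 0 to 195 lower (without KO replicate 1, 111 and 195; without KO replicate 2, 57 and 82). The lists ranged from 0 to 4 higher and 0 to 8 lower, and the 10 factors from 0 to 0 higher and 0 to 2 lower. With the filter kept from all 4 libraries, an alternative chosen after seeing the data, these counts were 38 higher and 36 lower without KO replicate 1 and 1 and 3 without KO replicate 2, with 1 higher and 1 lower on the lists and 0 factors.

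Signs that turned when a library was left out had these ranges of log2 change: Angptl2 -0.20 to 0.077, Angptl4 -0.35 to 0.11, Apoe -0.35 to 0.10, C3 -0.44 to 0.042, C3ar1 -0.49 to 0.10, Fgfr2 -0.026 to 0.47, Fgfr4 -0.21 to 0.47, Furin -0.22 to 0.13, Hpgd -0.045 to 0.14, Lpl -0.30 to 0.048, Nucb1 -0.035 to 0.071, Pcsk5 -0.062 to 0.11, Pla2g4a -0.39 to 0.13, Ptgds -0.35 to 0.088, Sparc -0.057 to 0.12, Tlr4 -0.27 to 0.043. Under quantile normalization Sparc also turned, to -0.027. The cause was not tested.

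The replicate block by the title suffix called 0 genes at an FDR of 0.05, with 429 higher and 664 lower at an unadjusted p under 0.05 against 536 and 919 without it, and gave limma adjusted p-values of 0.252 for Metrnl and 0.224 for Gdf15. The suffix is not stated to mark a pairing, and the WT and KO differences by suffix had a correlation of -0.0959 across 12391 genes. Quantile normalization gave 662 higher and 749 lower genes at that p, so the split depends on the scaling. Low depth limits Rbp4, Cfd, Fgf21 and Metrn, each with at most 5 reads in any library after rounding.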
